A study of Mus musculus with 9 samples.

Results

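The 10 genes described here move iron and heme through cells: Cd163, Hmox1, Blvra, Blvrb, Spic, Slc40a1, Tfrc, Slc11a1, Fth1 and Ftl1. They were taken by gene symbol from a table of 14862 genes. All 10 were found there, and all 10 passed the filter on low values used for the tests. The RNA came from spleen dendritic cells of C57Bl/6 mice that were 8 to 12 weeks old, sorted into 3 subsets, with 3 libraries of mcDC, 3 of cDC1 and 3 of cDC2. No allele, agent or treatment is given for any library, so all groups share strain, tissue and age range and differ in the sorted subset. In the field mcDC stands for merocytic dendritic cells, but the labels leave it unexpanded, and the gates of the sort are not given in the sources used here. cDC1 and cDC2 are the type 1 and type 2 conventional dendritic cells. Nothing in the labels ties the libraries to separate mice or to pools, so a p-value here speaks of the spread among these libraries alone, possibly a technical one.

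In the spleen, worn-out red cells are taken up by red pulp macrophages, which break down heme and return its iron to the blood. CD163 takes up haemoglobin bound to haptoglobin, heme oxygenase 1 opens the heme ring to give biliverdin, carbon monoxide and iron, and the biliverdin reductases turn biliverdin into bilirubin. Iron then leaves through ferroportin, the product of Slc40a1 and the known cellular iron exporter of mammals, or is stored in shells of ferritin heavy and light chains, the products of Fth1 and Ftl1. Transferrin receptor 1, the product of Tfrc, brings transferrin-bound iron in, and Slc11a1 encodes NRAMP1, a metal transporter of the phagosome membrane. Spic encodes SPI-C, a transcription factor that heme induces in monocytes and that red pulp macrophages need to form.

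Fth1, Ftl1, Slc40a1 and Tfrc mRNAs carry iron-responsive elements, short hairpins that the iron regulatory proteins bind when iron is low. The hairpins in the 5′ UTR of Fth1, Ftl1 and Slc40a1 block translation when bound, whereas those in the 3′ UTR of Tfrc protect the mRNA from decay. The elements are shown because a level of Fth1, Ftl1 or Slc40a1 mRNA is therefore not a level of protein, while the Tfrc level lies downstream of the same sensor. They were found in the GENCODE M21 transcripts (GRCm38) as a C, 5 bases and the loop CAGTGN on the strand of the gene, with the 5 bases before the loop paired to the 5 bases after it. In the first transcript of each of 21090 genes, with at most 1 of the 5 pairs missing, 0.531% of genes held such an element in the 5′ UTR and 2.93% in the 3′ UTR. All 7 elements printed have 5 of 5 pairs, and capitals mark the bulged C and the loop.
Fth1 5′ UTR, chr19:9982732-9982761, plus strand: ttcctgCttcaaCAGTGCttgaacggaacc
Ftl1 5′ UTR, chr7:45459778-45459807, minus strand: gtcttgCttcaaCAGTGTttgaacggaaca
Slc40a1 5′ UTR, chr1:45925464-45925493, minus strand: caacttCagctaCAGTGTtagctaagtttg
Tfrc 3′ UTR, chr16:32631219-32631248, plus strand: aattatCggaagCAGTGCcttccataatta
Tfrc 3′ UTR, chr16:32631598-32631627, plus strand: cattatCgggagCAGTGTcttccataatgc
Tfrc 3′ UTR, chr16:32631663-32631692, plus strand: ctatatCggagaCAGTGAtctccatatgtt
Tfrc 3′ UTR, chr16:32631710-32631739, plus strand: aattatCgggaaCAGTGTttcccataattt
With the pattern above, 4 elements were found in the 3′ UTR of Tfrc and 1 each in Fth1, Ftl1 and Slc40a1. Elements of another form would not have been found.

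Library totals were 5.15 to 8.24 M reads (M, 1000 x 1000) in mcDC, 9.7 to 11.03 M in cDC1 and 9.2 to 12.44 M in cDC2. The values are RPKM, reads per kilobase of gene per M reads, so that in a gene of 1000 bases 1 read weighs 0.08 to 0.194 RPKM. Genes at 0 made up 2.71% to 12.35% of the table, with the highest share in mcDC replicate 3, the shallowest library, which stands apart from the others. The mean log2(RPKM + 1) of the 8 cDC1 markers was 4.24 to 5.19 in mcDC, 7.04 to 7.5 in cDC1 and 2.99 to 3.28 in cDC2. For the 8 cDC2 markers it was 4.4 to 5.25 in mcDC, 2.48 to 3.84 in cDC1 and 6.0 to 6.04 in cDC2, and the 4 pan dendritic cell markers were high in every library, at 6.52 to 7.15. Against their defining markers the cDC1 and cDC2 labels held, and mcDC lay between them on both lists. Markers of splenic macrophages averaged 3.98, 4.17 and 4.39 in mcDC replicates 1, 2 and 3, against 2.64, 2.34 and 2.82 in cDC1 and 3.01, 3.23 and 3.36 in cDC2. Of the 19 markers in that list 17 were tested, and their summed level was 618 to 968 RPKM in mcDC, 287 to 365 RPKM in cDC1 and 618 to 794 RPKM in cDC2. In mcDC 14 of them were called higher and 1 lower than in cDC1, and 9 higher and 1 lower than in cDC2. No macrophage marker was at 0 in all mcDC libraries or in all cDC1 libraries, and 1 was at 0 in all cDC2 libraries. The highest marker was Cd68, a lysosomal protein that dendritic cells also carry. None of the 10 genes described here is in a marker list.

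The iron and heme genes did not move as a block. Against cDC1, mcDC had more mRNA for the exporter Slc40a1, the regulator Spic, the scavenger receptor Cd163 and the transferrin receptor Tfrc, and less for Slc11a1. Against cDC2, mcDC had more Slc40a1 and more Hmox1. cDC1 had more Slc11a1 than cDC2, and less Tfrc and Fth1. A gene was called at a limma adjusted p under 0.05, with adjustment over the 11971 genes that exceeded 1 RPKM in 2 libraries or more. Fold changes are on the log2(RPKM + 1) scale, which understates changes of low genes.

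Between mcDC and cDC1, 4 of the 10 genes were called higher and 1 lower in mcDC, where 9.53% and 5.88% of all genes tested were called in those directions. All mcDC libraries lay above all cDC1 libraries for 5 of them and below for 1, and such separation in either direction held for 30.5% of all genes. The median log2 fold change was 0.88 for the 10 genes and 0.09 for all genes. Between mcDC and cDC2, 2 were called higher and 0 lower, against 2.06% and 1.6% of all genes, and 4 were separated, all higher in mcDC, against 21.6% of all genes in either direction. Hmox1 and Slc40a1 made up those calls. At an unadjusted limma p under 0.05 Cd163 and Spic were also higher in mcDC and 0 genes were lower, and voom on the recovered reads called 2 higher and 0 lower too. The median was 0.45, and 0.06 for all genes. Between cDC1 and cDC2, 1 gene was called higher and 2 lower in cDC1, against 8.85% and 10.7% of all genes, and 6 were separated, 2 higher and 4 lower in cDC1, against 46.1% of all genes. The median was 0.04, and -0.02 for all genes. The mcDC libraries stand on one side of both of the first comparisons, so these are not independent, and the same holds for cDC1 and cDC2 in their pairs. Scaling by quantiles or by the median of ratios moved the median of all genes for mcDC over cDC1 to -0.01 and -0.03, and the share of higher genes among those called to 48.5% and 46.5%, against 61.8% in the values as deposited. For mcDC over cDC2 that share was 48.6% and 42.8% under these scalings and 56.4% as deposited. None of the 10 genes changed direction under either scaling. Without mcDC replicate 3, 4 of the 10 genes were called higher and 2 lower in mcDC than in cDC1, with Ftl1 added, 2 were higher and 0 lower than in cDC2, and 2 were higher and 2 lower in cDC1 than in cDC2, with Hmox1 added.

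**Figure D1:**
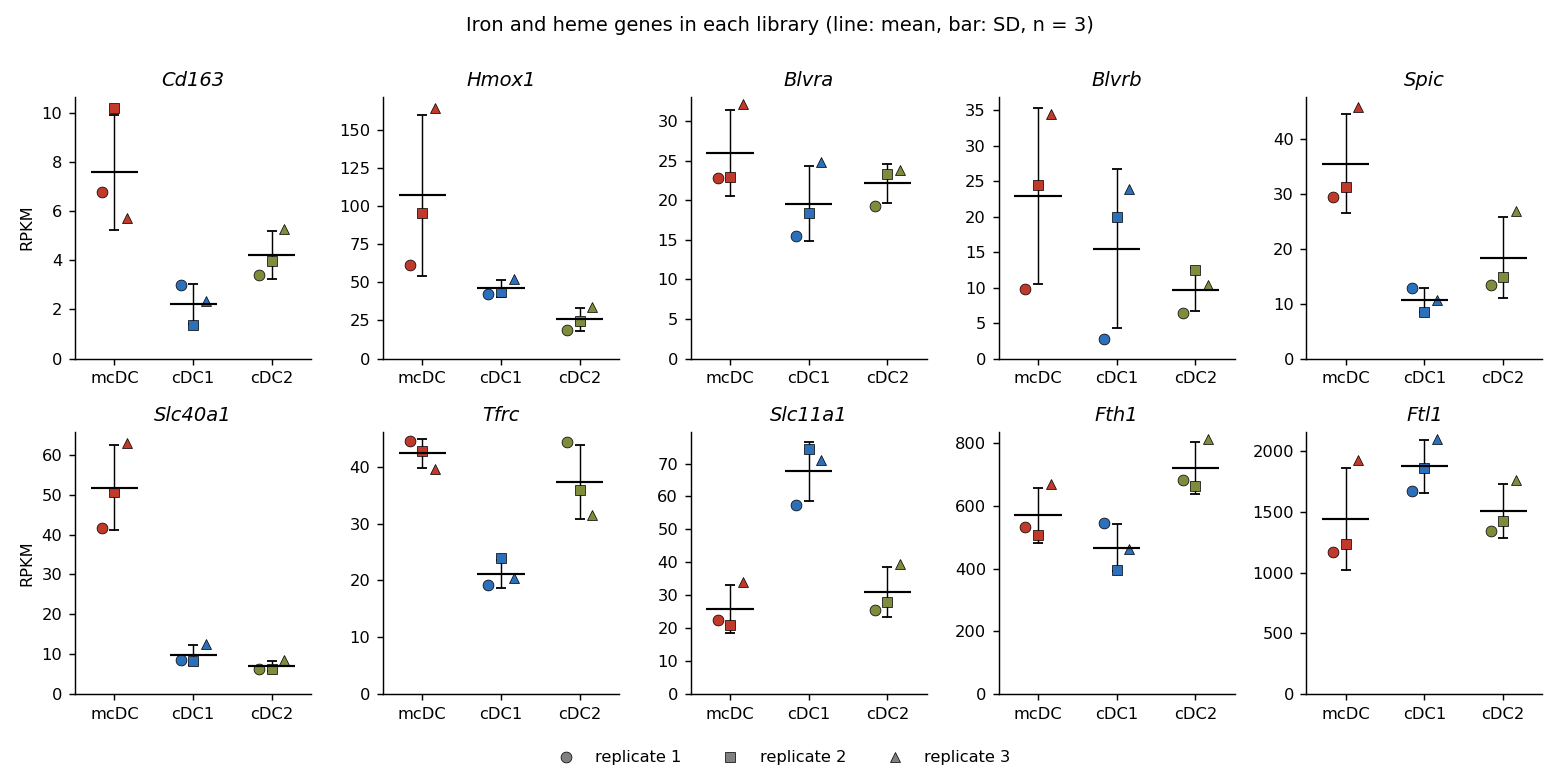
RPKM of each of the 10 genes in the mcDC, cDC1 and cDC2 libraries, 3 per subset, with symbols for the replicate, a line for the mean and a bar for the SD, on axes that start at 0. The mcDC points of Slc40a1, at 41.8 to 62.9 RPKM, lie far above those of cDC1 and cDC2, the cDC1 points of Slc11a1 lie above all others, and Blvrb is lowest in replicate 1 of every subset.

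Cd163 (Entrez gene 93671), the haemoglobin-haptoglobin receptor, was the least abundant of the 10. It had 6.81, 10.2 and 5.73 RPKM in mcDC replicates 1, 2 and 3, against 3.0, 1.36 and 2.34 RPKM in cDC1 and 3.40, 3.99 and 5.29 RPKM in cDC2, from 68 to 299 reads per library. Each mcDC library lay above each library of the other subsets, and the cDC1 libraries lay below all cDC2 libraries, although mcDC replicate 3 and cDC2 replicate 3 were close. The mean was 7.59 ± 2.35 RPKM in mcDC, 2.23 ± 0.825 RPKM in cDC1 and 4.22 ± 0.967 RPKM in cDC2 (SD, n = 3 each). The log2 fold change of mcDC over cDC1 was 1.41 ± 0.27 (SE, limma adjusted p = 0.00644), that over cDC2 was 0.70 ± 0.27 (adjusted p = 0.215), and cDC1 over cDC2 gave -0.71 ± 0.27 (adjusted p = 0.0992). Cd163 thus rose in mcDC against cDC1, and the other comparisons missed the threshold. In sorted bulk samples, fewer cells of a type and less RNA per cell cannot be told apart. The mean of the macrophage markers given above, like Cd163, was higher in each mcDC library than in any library of the other subsets. Within mcDC that mean was highest in replicate 3, at 4.39. Of the mcDC libraries, that one was lowest in Cd163 but highest in Hmox1, Spic and Slc40a1, at 165, 45.9 and 62.9 RPKM. The part of these markers in the Cd163, Hmox1, Spic and Slc40a1 values was not tested.

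Hmox1 (15368), which encodes heme oxygenase 1, had 61.2, 95.3 and 165 RPKM in mcDC, against 42.1, 43.4 and 52.5 RPKM in cDC1 and 18.8, 24.8 and 33.5 RPKM in cDC2. The subsets did not overlap in any pair and ran mcDC, cDC1, cDC2 from high to low, but the mcDC libraries spread widely. Means were 107 ± 52.7 RPKM in mcDC, 46.0 ± 5.67 RPKM in cDC1 and 25.7 ± 7.41 RPKM in cDC2. Hmox1 rose in mcDC against cDC2, with a log2 fold change of 1.94 ± 0.32 (adjusted p = 0.0115), a call lost without cDC2 replicate 2 (adjusted p = 0.059). mcDC over cDC1 gave 1.09 ± 0.32, just past the threshold on the uncalled side (adjusted p = 0.0501), and cDC1 over cDC2 gave 0.85 ± 0.32 (adjusted p = 0.108). The titles of the libraries are numbered so that each run of 3 holds a library of every subset, and libraries of a run varied together. With that run as a replicate block, Hmox1 was called in mcDC over cDC1 (adjusted p = 0.004) and in cDC1 over cDC2 (0.0099). Within the runs the mcDC library had 1.46, 2.20 and 3.14 times the cDC1 level and 3.26, 3.84 and 4.91 times the cDC2 level. For mcDC over cDC1 the log2 fold change was 1.43 without mcDC replicate 1 (adjusted p = 0.009) and 0.73 without mcDC replicate 3 (0.069). For cDC1 over cDC2 the adjusted p was 0.037 without mcDC replicate 1 and 0.02 without mcDC replicate 3, where only the shared spread and the filter change.

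The reductases that act after heme oxygenase differed less. Blvra (109778), biliverdin reductase A, had 22.8, 22.9 and 32.2 RPKM in mcDC, against 15.5, 18.4 and 24.8 RPKM in cDC1 and 19.2, 23.4 and 23.8 RPKM in cDC2. The subsets overlapped in every pair, and log2 fold changes of 0.40 ± 0.20, 0.21 ± 0.20 and -0.19 ± 0.20 for mcDC over cDC1, mcDC over cDC2 and cDC1 over cDC2 had adjusted p of 0.216, 0.636 and 0.604. Hmox1 over Blvra, as a ratio of RPKM within a library, was 2.68, 4.17 and 5.11 in mcDC, 2.71, 2.36 and 2.12 in cDC1 and 0.976, 1.06 and 1.41 in cDC2. By this measure the cDC2 libraries lay below all others, and mcDC replicate 1 fell within the cDC1 range.

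Blvrb (233016), biliverdin reductase B, which also serves as a flavin reductase of red cells, had 9.85, 24.5 and 34.4 RPKM in mcDC, 2.73, 19.9 and 23.9 RPKM in cDC1 and 6.43, 12.4 and 10.3 RPKM in cDC2. The lowest library of each subset was replicate 1, and every pair of subsets overlapped. The 10 erythroid markers in the table, none of them a haemoglobin gene, did the same: their mean log2(RPKM + 1) was 0.24, 2.82 and 2.31 in mcDC, 0.28, 3.2 and 3.0 in cDC1 and 0.16, 1.23 and 0.86 in cDC2. Their summed level was 2.11 to 88.5 RPKM in mcDC, 2.71 to 115 RPKM in cDC1 and 1.29 to 16.4 RPKM in cDC2. No comparison of Blvrb was called, with log2 fold changes of 0.78 ± 0.69, 1.04 ± 0.69 and 0.26 ± 0.69 in the order used for Blvra (adjusted p = 0.51, 0.493 and 0.865). The standard error was more than 3 times that of Blvra. The part of red cell RNA in these values was not tested.

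Spic (20728) had 29.5, 31.2 and 45.9 RPKM in mcDC, against 12.9, 8.46 and 10.7 RPKM in cDC1 and 13.5, 14.9 and 26.9 RPKM in cDC2. The mcDC libraries were the highest and the cDC1 libraries the lowest, with no overlap in any pair, and cDC2 replicate 3 came close to mcDC replicate 1. Means were 35.5 ± 9.02 RPKM in mcDC, 10.7 ± 2.19 RPKM in cDC1 and 18.4 ± 7.36 RPKM in cDC2. Spic rose in mcDC against cDC1 by a log2 fold change of 1.64 ± 0.27 (adjusted p = 0.00336), a 3.33-fold ratio of means. mcDC over cDC2 gave 0.95 ± 0.27 (adjusted p = 0.1), which passed with the replicate block (0.036) and without cDC2 replicate 3 (0.041). It was not called with the block when mcDC replicate 3 was also left out, and without mcDC replicate 3 alone it was 0.75 (adjusted p = 0.17). Over all alternatives its adjusted p ran between 0.036 and 0.34. cDC1 over cDC2 gave -0.69 ± 0.27 (adjusted p = 0.117, and 0.043 with the block).

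The exporter Slc40a1 (53945) showed the largest difference among the 10 genes in both mcDC comparisons. It had 41.8, 50.7 and 62.9 RPKM in mcDC, against 8.46, 8.18 and 12.5 RPKM in cDC1 and 6.30, 6.16 and 8.49 RPKM in cDC2. Every mcDC library stood more than 3 times above the highest library of the other subsets, while cDC2 replicate 3 lay just above cDC1 replicates 1 and 2. Means were 51.8 ± 10.6 RPKM in mcDC, 9.73 ± 2.44 RPKM in cDC1 and 6.98 ± 1.31 RPKM in cDC2, ratios of 5.32 and 7.42. The log2 fold change was 2.30 ± 0.21 for mcDC over cDC1 (adjusted p = 0.000144) and 2.72 ± 0.21 for mcDC over cDC2 (adjusted p = 0.000425), and within the 3 runs the ratio was 4.94, 6.19 and 5.02 over cDC1 and 6.63, 8.23 and 7.41 over cDC2. Without mcDC replicate 3 they were 2.16 and 2.57. Over all alternatives the adjusted p stayed between 2.1e-05 and 0.0014 for the first and between 7.9e-05 and 0.0057 for the second. cDC1 over cDC2 gave 0.42 ± 0.21 (adjusted p = 0.226, and 0.035 with the replicate block).

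**Figure D2:**
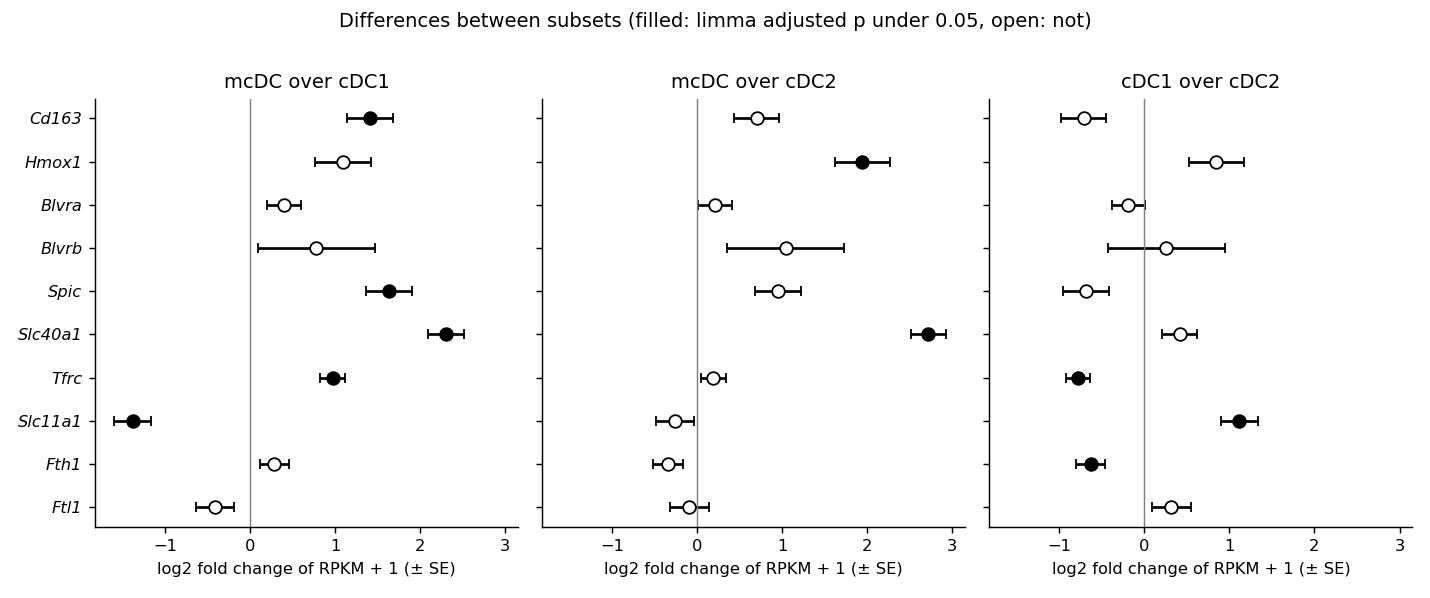
Log2 fold change of RPKM + 1 for each gene in mcDC over cDC1, mcDC over cDC2 and cDC1 over cDC2, with bars for the SE of the limma fit and filled points for adjusted p under 0.05. Slc40a1 is filled and far to the right in both mcDC panels, at 2.30 and 2.72, and Slc11a1 lies on opposite sides of 0 in the mcDC over cDC1 and cDC1 over cDC2 panels, at -1.38 and 1.12.

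The 2 genes for iron uptake and phagosomal metal transport separated cDC1 from the other subsets in opposite directions. Tfrc (22042) had 44.6, 42.8 and 39.7 RPKM in mcDC, against 19.1, 23.9 and 20.4 RPKM in cDC1 and 44.3, 36 and 31.5 RPKM in cDC2. All cDC1 libraries were below all others, and mcDC overlapped cDC2. Tfrc rose in mcDC against cDC1 (log2 fold change 0.97 ± 0.15, adjusted p = 0.00196) and fell in cDC1 against cDC2 (-0.78 ± 0.15, adjusted p = 0.00419), and mcDC over cDC2 gave 0.19 ± 0.15 (adjusted p = 0.555). Means were 42.3 ± 2.47 RPKM in mcDC, 21.2 ± 2.46 RPKM in cDC1 and 37.2 ± 6.53 RPKM in cDC2.

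Slc11a1 (18173) had 22.4, 20.9 and 34.1 RPKM in mcDC, against 57.3, 74.5 and 71.0 RPKM in cDC1 and 25.4, 27.9 and 39.5 RPKM in cDC2. The lowest cDC1 library was above every other library, and mcDC overlapped cDC2. Means were 25.8 ± 7.24 RPKM in mcDC, 67.6 ± 9.08 RPKM in cDC1 and 30.9 ± 7.50 RPKM in cDC2. Slc11a1 fell in mcDC against cDC1 (log2 fold change -1.38 ± 0.22, adjusted p = 0.00264) and rose in cDC1 against cDC2 (1.12 ± 0.22, adjusted p = 0.00538), with -0.26 ± 0.22 for mcDC over cDC2 (adjusted p = 0.597). C57BL/6 mice carry an allele of Slc11a1 whose protein does not work, which an RNA level does not show.

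Ferritin mRNAs were by far the most abundant of the 10. Fth1 (14319), the heavy chain with ferroxidase activity, had 533, 506 and 670 RPKM in mcDC, against 545, 396 and 462 RPKM in cDC1 and 681, 665 and 815 RPKM in cDC2. Ftl1 (14325), the light chain, had 1166, 1235 and 1924 RPKM in mcDC, against 1668, 1862 and 2104 RPKM in cDC1 and 1342, 1427 and 1761 RPKM in cDC2. The cDC1 libraries were lower than all cDC2 libraries in Fth1, and the other pairs overlapped for both genes. The pair took 0.212%, 0.213% and 0.311% of reads in mcDC, 0.263%, 0.254% and 0.29% in cDC1 and 0.256%, 0.261% and 0.322% in cDC2. The Fth1 value is divided by a gene model of 1849 bases and that of Ftl1 by 970 bases, so a level set between the genes depends on these models, whereas a difference between subsets does not.

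Fth1 fell in cDC1 against cDC2, with a log2 fold change of -0.63 ± 0.17 (adjusted p = 0.0297). That call was lost when any of cDC1 replicates 2 and 3 or cDC2 replicates 1, 2 and 3 was left out (adjusted p 0.067 to 0.14). mcDC over cDC1 gave 0.29 ± 0.17 (adjusted p = 0.316) and mcDC over cDC2 gave -0.34 ± 0.17 (0.361). Ftl1 was not called in any comparison, with -0.41 ± 0.23, -0.09 ± 0.23 and 0.32 ± 0.23 for mcDC over cDC1, mcDC over cDC2 and cDC1 over cDC2 (adjusted p = 0.275, 0.874 and 0.422). The first of these was called with the replicate block (0.046) and without mcDC replicate 3 (-0.64 ± 0.18, adjusted p = 0.035). Ferritin genes have near-identical copies: 14 ferritin copies and relatives are named in the reference gene list and 0 of them are in the table, so reads from them may have been split or added, and both levels are uncertain. Cd163 overlaps a long noncoding RNA gene and Blvra a pseudogene, neither of them in the table.

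A ratio of genes within a library is not changed by scaling the whole library by 1 factor, as the median of ratios does. Scaling by quantiles can change it. Fth1 over Ftl1 was 0.457, 0.410 and 0.348 in mcDC, 0.327, 0.212 and 0.220 in cDC1 and 0.508, 0.466 and 0.463 in cDC2, so cDC1 libraries were lowest, cDC2 highest and mcDC between, with no overlap. Slc40a1 over Tfrc, mRNA for export over mRNA for transferrin uptake, was 0.937, 1.19 and 1.59 in mcDC, 0.443, 0.343 and 0.614 in cDC1 and 0.142, 0.171 and 0.270 in cDC2. That ratio ordered the subsets mcDC, cDC1, cDC2 with no overlap. Slc40a1 over Slc11a1 was 1.86, 2.43 and 1.84 in mcDC, 0.148, 0.110 and 0.177 in cDC1 and 0.248, 0.221 and 0.215 in cDC2, above 1 in every mcDC library and below 1 in all others. A two-sided exact permutation test of 3 against 3 libraries cannot go below p = 0.1. Of 12 such comparisons of 4 ratios, 11 reached that value (0.109 after Benjamini-Hochberg adjustment) and Hmox1 over Blvra in mcDC against cDC1 gave 0.2, so none can pass 0.05.

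**Figure D3:**
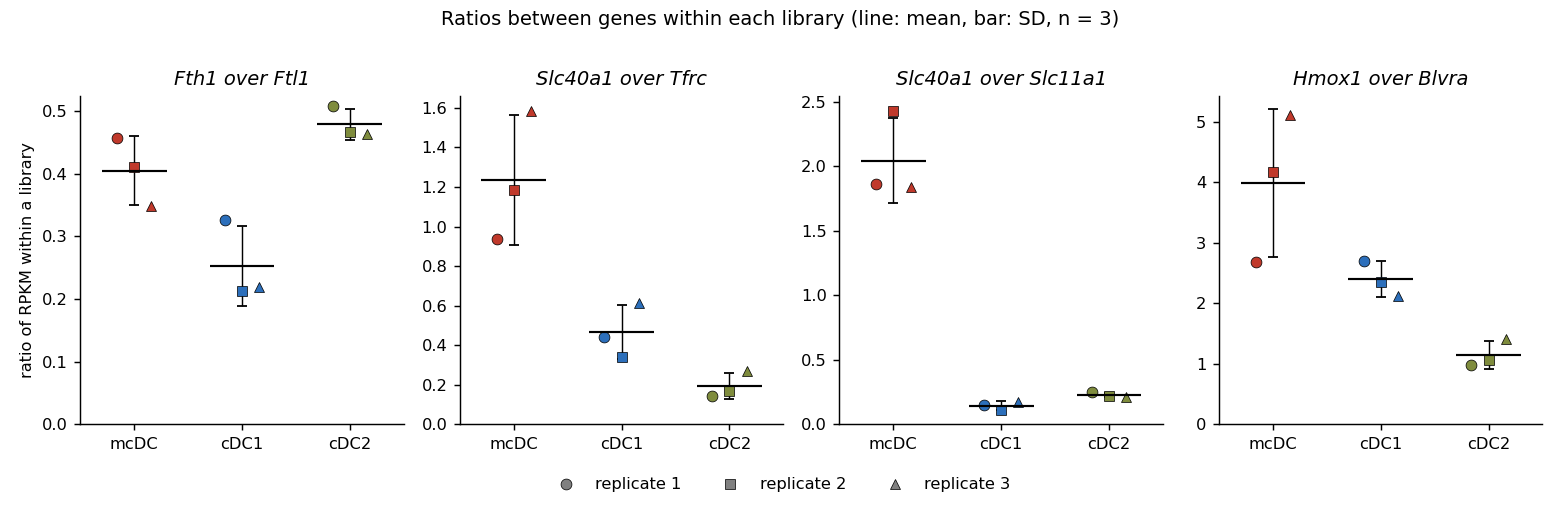
Ratio of the RPKM of 2 genes within each library, for Fth1 over Ftl1, Slc40a1 over Tfrc, Slc40a1 over Slc11a1 and Hmox1 over Blvra, in mcDC, cDC1 and cDC2, with the mean and SD of 3 libraries on axes that start at 0. The subsets do not overlap in the first 3 panels, and in the last the mcDC and cDC1 points overlap at 2.68 and 2.71.

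Across the 9 libraries, which share the runs and the subsets, Slc40a1 correlated with Hmox1 at r = 0.91 and with Spic at 0.80, and Spic with Cd163 at 0.88 (Pearson, log2(RPKM + 1)). Tfrc and Slc11a1 ran opposite at -0.93, and Slc11a1 ran with Ftl1 at 0.85. Such values largely restate the differences between subsets and carry no test. Among 8707 genes with a mean of at least 5 RPKM in a subset, the 5 most like Slc40a1 were Mertk (r = 0.991), Ets1 (0.990), Slc45a3 (0.977), Cd5l (0.975) and Spry2 (0.975). Mertk, a receptor for dying cells, averaged 13.6, 1.42 and 0.734 RPKM and Cd5l, a secreted macrophage protein, 21.04, 2.73 and 1.98 RPKM in mcDC, cDC1 and cDC2, and both are also in the macrophage marker list. Most like Hmox1 were Gimap4 (0.984), Gimap1 (0.983), Cd160 (0.981), Gimap6 (0.979) and Xcl1 (0.979), and Xcl1, the ligand of XCR1, averaged 54.2, 9.58 and 2.53 RPKM. None of these 5 is in the macrophage marker list. The 4 T cell markers in the table had a mean log2(RPKM + 1) of 2.41, 2.59 and 3.18 in mcDC. It was 2.78, 2.56 and 3.37 in cDC1 and 1.49, 1.4 and 2.23 in cDC2. No list of natural killer cell markers was drawn up, and the part of lymphocyte RNA in the Hmox1 and Spic values was not tested. Most like Spic were Trf (0.974), Ech1 (0.974), Hcar2 (0.973), Hnrnpdl (0.971) and Il18rap (0.966), and Trf encodes transferrin, the iron carrier that the Tfrc product binds.

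**Figure D4:**
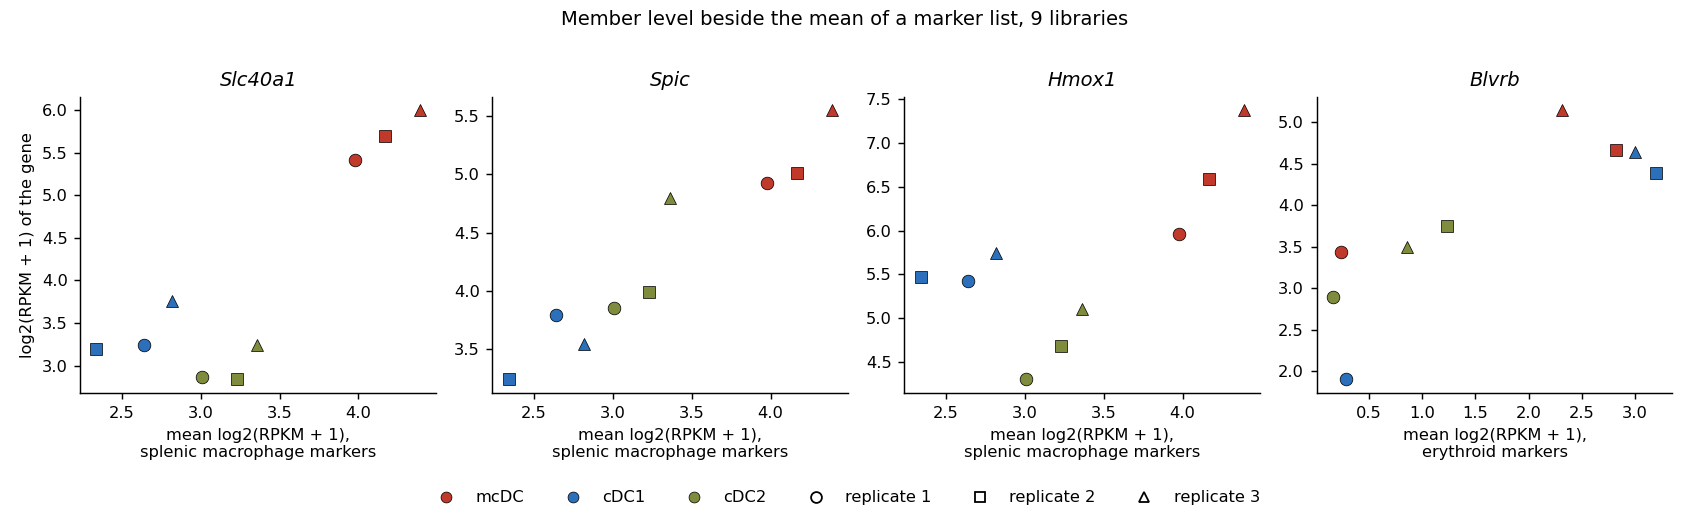
Log2(RPKM + 1) of Slc40a1, Spic and Hmox1 against the mean of the splenic macrophage markers, and of Blvrb against the mean of the erythroid markers, for the 9 libraries, coloured by subset with symbols for the replicate. The mcDC libraries are at the upper right for the first 3 genes, at marker means of 3.98 to 4.39, and replicate 1 of every subset is at the left for Blvrb, at 0.16 to 0.28.

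A wider list held 102 other names of iron and heme metabolism, of which 89 were in the table and 81 were tested. In mcDC against cDC1, 9 of them were called higher and 3 lower (11.1% and 3.7%), with a median log2 fold change of 0.10. Against cDC2, 1 was called higher and 7 lower in mcDC (1.23% and 8.64%), with a median of 0.15. In cDC1 against cDC2, 2 were higher and 13 lower (2.47% and 16.0%), with a median of 0.02. The shares for all genes tested are those given above.

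Among carriers that bring iron in, 1 of 11 tested was called higher in mcDC than in cDC1. That was Trf, with 107, 109 and 152 RPKM in mcDC against 78.5, 52.0 and 60.4 RPKM in cDC1 (log2 fold change 0.94, adjusted p = 0.0145), a call lost without cDC1 replicate 2 (0.071) or replicate 3 (0.058). The sorting nexin gene Snx3 and the endolysosomal channel gene Mcoln1 gave -0.02 and 0.10 there and were not called. Lcn2, which encodes a protein that captures bacterial iron carriers, had 0.142, 0 and 0.911 RPKM in mcDC, against 0, 0 and 0.967 RPKM in cDC1 and 4.20, 45.0 and 83.7 RPKM in cDC2. It fell in mcDC against cDC2 (-4.39, adjusted p = 0.0233) and in cDC1 against cDC2 (-4.44, 0.00506), and lactoferrin, Ltf, fell in cDC1 against cDC2 (-4.02, 0.0177). Lcn2 and Ltf are also neutrophil markers, and the 10 markers of that list averaged 0.19, 0.78 and 1.75 in mcDC, 0.66, 1.14 and 1.93 in cDC1 and 2.43, 5.16 and 5.76 in cDC2 on the log2(RPKM + 1) scale. Their summed level was 1.55 to 44.8 RPKM in mcDC, 9.79 to 45.2 RPKM in cDC1 and 130 to 1655 RPKM in cDC2, lowest in cDC2 replicate 1, and 1 marker was at 0 in all mcDC libraries. Their part in the cDC2 values was not tested. For mcDC against cDC2 the Lcn2 call was lost without mcDC replicate 2, cDC2 replicate 2 or cDC2 replicate 3 (adjusted p 0.082 to 0.12), with the 2 subsets fitted alone (0.08) and by voom (0.47), and for cDC1 against cDC2 it was lost by voom (0.25). The Ltf call was lost without cDC1 replicates 1 or 2 or cDC2 replicates 2 or 3 (0.06 to 0.076) and by voom (0.32).

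Genes that move or scavenge heme gave 2 calls higher in mcDC than in cDC1, of 8 tested. Lrp1, the receptor for heme bound to hemopexin, had 16.6, 11.9 and 9.79 RPKM in mcDC, against 6.85, 2.49 and 3.49 RPKM in cDC1 and 34.4, 41.2 and 44.5 RPKM in cDC2. The mcDC libraries lay between the other subsets, higher than cDC1 (1.44, adjusted p = 0.00943) and lower than cDC2 (-1.60, 0.0173), and the cDC1 level was lower than that of cDC2 (-3.04, 8.99e-05). The second of these calls was lost without mcDC replicate 2, cDC2 replicate 2 or cDC2 replicate 3 (0.062 to 0.087). The 10 monocyte markers had the same order, with a mean log2(RPKM + 1) of 5.19 to 5.57 in mcDC, 3.55 to 4.32 in cDC1 and 5.97 to 6.81 in cDC2. Their summed level was 735 to 914 RPKM in mcDC, 235 to 435 RPKM in cDC1 and 1623 to 2449 RPKM in cDC2, and none was at 0 in all libraries of a subset. Of these markers 7 were called higher in mcDC than in cDC1, 4 lower in mcDC than in cDC2 and 9 lower in cDC1 than in cDC2, and their part in the Lrp1 values was not tested. Slc48a1, whose product carries heme out of the lysosome, had 26.7, 29 and 41.5 RPKM in mcDC against 17.1, 20.6 and 20.4 RPKM in cDC1 (0.69, adjusted p = 0.0304), a call lost without any of the cDC1 libraries (0.076 to 0.096) and under 6 of 19 alternatives in all. Hp, haptoglobin, a protein of liver and of neutrophils, had 0, 0.577 and 0.623 RPKM in mcDC, 0, 0.125 and 0.662 RPKM in cDC1 and 5.08, 12.8 and 22.4 RPKM in cDC2, lowest in cDC2 replicate 1 like the neutrophil markers. It fell in mcDC against cDC2 (-3.20, adjusted p = 0.0057) and in cDC1 against cDC2 (-3.35, 0.000631), the first of these lost by voom (0.14). Tspo and Pgrmc1 had adjusted p of 0.81 and 0.112 in mcDC against cDC1.

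For iron chaperones and ferritin turnover, 1 of 4 genes was called. Ncoa4, the receptor that delivers ferritin to lysosomes, had 41.4, 44.7 and 41.4 RPKM in mcDC, against 35.1, 34.7 and 30.6 RPKM in cDC1 and 28.2, 31.5 and 29.6 RPKM in cDC2. It rose in mcDC against cDC2 (0.50, adjusted p = 0.0326), lost under 8 of 19 alternatives, among them without mcDC replicate 2, cDC1 replicate 2 or any cDC2 library (0.069 to 0.13), and gave 0.34 against cDC1 (0.0594). The iron chaperones Pcbp1 and Pcbp2 were at 138 to 203 and 86.8 to 108 RPKM over all 9 libraries and were not called in any comparison. Hfe, an MHC class I-like protein that takes part in iron sensing, had 23.8, 20.1 and 29.8 RPKM in mcDC, against 36.4, 42.9 and 49.3 RPKM in cDC1 and 49.0, 47.7 and 57.2 RPKM in cDC2. It fell in mcDC against both (-0.79, adjusted p = 0.0118, and -1.05, 0.00958), with no overlap, and Cp, the ferroxidase ceruloplasmin, was at 1.28 to 2.80 RPKM and not called. Without cDC1 replicate 2 or 3 the first had an adjusted p of 0.052 and 0.055, and without cDC2 replicate 3 the second had 0.052.

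Sensors and heme-responsive regulators gave 0 calls of 11 in mcDC against cDC1, with 2 at an unadjusted limma p under 0.05 and 0 by voom. Nfe2l2, which encodes the stress regulator NRF2, had 14.1, 16.3 and 20.6 RPKM in mcDC, 15.5, 13 and 14.7 RPKM in cDC1 and 27.4, 33.1 and 38.2 RPKM in cDC2, lower in mcDC than in cDC2 (-0.92, adjusted p = 0.0183) and lower in cDC1 than in cDC2 (-1.13, 0.00121). The first call was lost without mcDC replicate 2, cDC2 replicate 2 or cDC2 replicate 3 (0.062 to 0.095). Among the cDC2 libraries Nfe2l2 was lowest in replicate 1, like the neutrophil markers, whose part in the Nfe2l2 values was not tested. Bach1, the heme-sensing repressor of Hmox1, had 25.8, 19.1 and 12.9 RPKM in mcDC, 17.3, 8.81 and 8.77 RPKM in cDC1 and 30.2, 32.2 and 32.2 RPKM in cDC2. It fell in cDC1 against cDC2 (-1.43, adjusted p = 0.00584), with -0.73 for mcDC over cDC2 (0.224). The cDC2 subset had the most Nfe2l2 and Bach1 mRNA and the least Hmox1 mRNA, and a link between these levels was not tested. Eif2ak1, the heme-regulated kinase, and Fbxl5, the iron-sensing part of a ubiquitin ligase, were not called in any comparison.

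Of 10 heme synthesis genes tested, limma called 0 in mcDC against cDC1 and 0 against cDC2, voom called 0 in each, and 0 and 2 had an unadjusted limma p under 0.05. In the other comparison 1 gene, Alas1, the first enzyme of the pathway outside red cells, was lower in cDC1 than in cDC2 (-0.90, adjusted p = 0.00936). Alas1 had 13.1, 7.06 and 9.53 RPKM in mcDC, 6.55, 6.71 and 7.34 RPKM in cDC1 and 12.9, 14 and 14.1 RPKM in cDC2. Ppox, the last but one enzyme, was at 25.4 to 34.3 RPKM in all libraries.

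Mitochondrial iron genes gave 2 calls of 23 in mcDC against cDC1, both higher. Slc25a37, mitoferrin 1, which carries iron into mitochondria, had 30.5, 37.1 and 25.8 RPKM in mcDC, 11.7, 17.9 and 16.0 RPKM in cDC1 and 24.4, 25.3 and 23.2 RPKM in cDC2. It rose in mcDC against cDC1 (0.99, adjusted p = 0.00481) in all 19 alternatives as well, and fell in cDC1 against cDC2 (-0.66, 0.0261, lost without cDC1 replicates 1 or 3 or any cDC2 library, 0.061 to 0.097). Ciao1, a part of the cytosolic iron-sulfur cluster machinery, rose too (0.53, 0.0231), a call lost under 7 of 19 alternatives, among them without mcDC replicate 2, any cDC1 library or cDC2 replicate 2 (0.051 to 0.088), and the scaffold gene Iscu and the chaperone gene Hspa9 were not called in any comparison. Por, the reductase that feeds electrons to heme oxygenase, had 25.3, 30.6 and 33.9 RPKM in mcDC, 14.7, 15.4 and 14.7 RPKM in cDC1 and 32.9, 30 and 28.8 RPKM in cDC2. It rose in mcDC against cDC1 (0.95, adjusted p = 0.00115) and fell in cDC1 against cDC2 (-0.99, 0.000514), while Hmox2, the constitutive heme oxygenase, was not called in any comparison.

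Targets of NRF2, the regulator that also acts on Hmox1, went both ways. In mcDC against cDC1, 3 of 10 were higher (Slc7a11, G6pdx and Gpx4) and 2 lower (Gclc and Srxn1). Slc7a11 was near the floor, at 1.25, 1.01 and 1.30 RPKM in mcDC and 0.394, 0.108 and 0.0894 RPKM in cDC1. Those cDC1 values rest on 40, 11 and 8 reads. Srxn1 was low too, at 1.21, 0.767 and 3.18 RPKM in mcDC and 3.81, 5.39 and 5.32 RPKM in cDC1. Without cDC1 replicate 2, Slc7a11, G6pdx and Gpx4 had adjusted p of 0.1, 0.077 and 0.065, and without cDC1 replicate 3 Slc7a11 and Gpx4 had 0.091 and 0.06. Gclc, the catalytic chain of the enzyme that starts glutathione synthesis, had 15.6, 15.2 and 12.3 RPKM in mcDC, 133, 166 and 138 RPKM in cDC1 and 13.4, 11.9 and 11 RPKM in cDC2. Gclc fell in mcDC against cDC1 (-3.25, adjusted p = 4.44e-06) and rose in cDC1 against cDC2 by 3.48 (adjusted p = 9.39e-07). Srxn1, sulfiredoxin, fell in mcDC against cDC1 (-1.19, adjusted p = 0.0284, lost without mcDC replicates 1 or 2, cDC1 replicates 2 or 3 or cDC2 replicate 2, 0.052 to 0.11) and rose in cDC1 against cDC2 (1.49, 0.00756). Gsr, glutathione reductase, had 17.9, 15.1 and 15.4 RPKM in mcDC, 25.3, 16.7 and 17.7 RPKM in cDC1 and 30.4, 51.6 and 54.6 RPKM in cDC2. Among the cDC2 libraries it was lowest in replicate 1, like the neutrophil markers, whose part in the Gsr values was not tested. Gsr fell in mcDC against cDC2 (-1.40, adjusted p = 0.0111, lost without cDC2 replicates 2 or 3, 0.068 and 0.057). G6pdx, the first enzyme of the pentose phosphate pathway, did so at the edge of the threshold (-0.73, 0.0487, lost under 14 of 19 alternatives, 8 of them the loss of any library but mcDC replicate 2). In cDC1 against cDC2, 2 were higher and 4 lower, with G6pdx at -1.49 (0.000248). G6pdx had 41.4, 50.8 and 57.5 RPKM in cDC2, also lowest in replicate 1, and the part of neutrophil RNA there was not tested. Prdx1, a peroxiredoxin, was not called in any comparison.

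**Figure D5:**
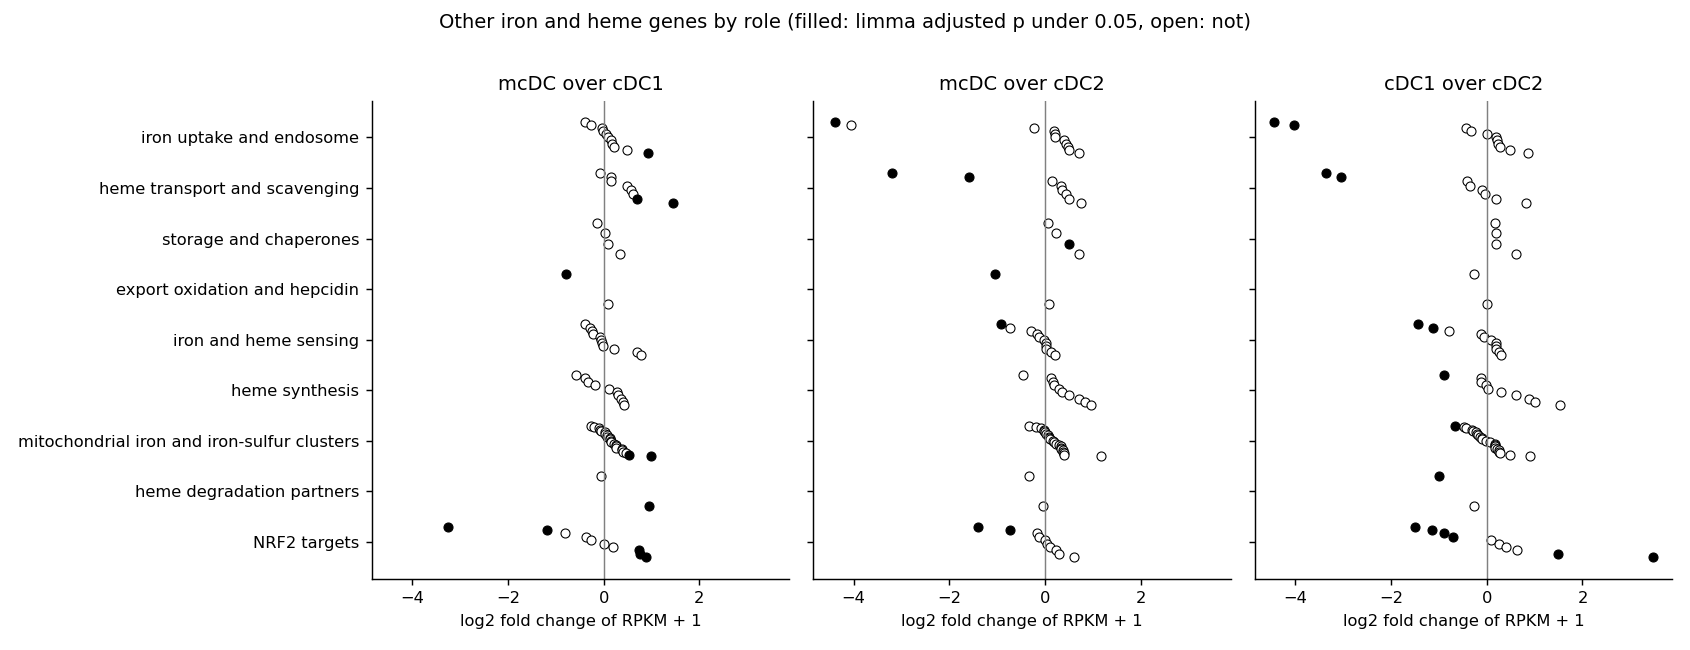
Log2 fold change of RPKM + 1 of each of the 81 tested genes of the wider list, grouped by role, in mcDC over cDC1, mcDC over cDC2 and cDC1 over cDC2, with filled points for limma adjusted p under 0.05. Gclc is the far left point of the first panel at -3.25 and the far right point of the last at 3.48, and the far left points of the mcDC over cDC2 and cDC1 over cDC2 panels are Lcn2 at -4.39 and -4.44.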

How the data were processed

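RNA was sequenced by the authors from total RNA with a strand-keeping library kit, per the labels' protocols. The deposited values are RPKM for 14862 genes in 9 libraries, a unit read from the steps between values, since no header names it. The submitters' processing notes name the mouse build mm8; the aligner, counting tool and gene annotation are not given in the sources used here. The 8 single-library files were identical to their columns, and no column belonged to another sample. Read counts came out whole (within 0.01) for 99.88% of nonzero values, which gave the library totals. The RefSeq list of GRCm38.p6 held 14847 of the gene numbers.

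limma 3.58.1 (R 4.3.3) was run on log2(RPKM + 1) as a single fit of the 3 groups with trended prior variance, over the 11971 genes that exceeded 1 RPKM in 2 libraries or more, with Benjamini-Hochberg adjustment over all of them and a threshold of 0.05. There were 6 residual degrees of freedom, and the median standard error was 0.209. The fit was also tried on simulated counts drawn without a run effect. These cannot show how it behaves when libraries of a run vary together, and nothing here rests on them. Members and lists were chosen with earlier results of these data known, and no list was tested as a set. All 10 members are named. Of each role of the wider list and comparison, up to 2 called genes of largest change and up to 2 uncalled genes of highest RPKM could be named, and genes named as like a member had the highest Pearson r. The called genes Slc7a11 and Gpx4 were named after their values were seen, and a few genes are not reported here. Replicate numbers follow the runs of 3 library titles. Deviations from group means correlated at 0.11 to 0.59 in all 9 pairs of different subsets in the same run over 7885 genes. Pairs of different subsets and runs gave -0.59 to 0.02, which centring on group means pulls down once same-run pairs are positive. The run was therefore fitted as a replicate block. For the 10 genes it stands beside a result it changes, and for the wider list only counts of calls are given. What a run shares is not stated. Replicate pairs differed by a chi-square of 10.36 to 65.75 per degree of freedom. Counting error was not added to the fit. Python 3.11.15, pandas 2.3.3, numpy 2.4.6 and matplotlib 3.10.9 served for tables and figures.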

Additional observations from a re-analysis of the deposited data

How the results depend on the processing

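Over 19 alternatives, the 30 fold changes of the 10 genes gave 570 values. Of these, 537 kept direction and side of the threshold, 22 passed it newly, 6 lost it and 5 changed sign. Called genes of the wider list gave 663 values, of which 577 kept their call, 86 lost it and 0 changed sign. Sign changes came from leaving out a library, in comparisons where the gene was not called under any alternative: Blvrb in mcDC over cDC1 ran from -0.09 to 1.28, Blvrb in cDC1 over cDC2 from -0.24 to 1.13, and Ftl1 in mcDC over cDC2 from -0.32 to 0.04. The cause was not tested.

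Genes called numbered 1845 for mcDC against cDC1, 438 for mcDC against cDC2 and 2344 for cDC1 against cDC2. With the compared groups fitted alone, these were 1096, 251 and 3731. The replicate block gave 773 for mcDC against cDC2, and with mcDC replicate 3 also left out it gave 3003, 718 and 4274. Leaving out a library gave 951 to 2601, 158 to 896 and 1547 to 3467. Among the 10 genes, calls in cDC1 against cDC2 were 3, but 5 with the groups fitted alone, 6 with the block and 7 with the block and mcDC replicate 3 left out. Calls in mcDC against cDC2 were 2, and 1 to 3 when a library was left out. In the wider list, calls were 12, 8 and 15. The replicate block called 12 of its genes higher and 3 lower in mcDC against cDC1. It called 3 higher and 8 lower in mcDC against cDC2, and 6 higher and 14 lower in cDC1 against cDC2. With the groups fitted alone, calls in the wider list were 4 and 24 for mcDC against cDC2 and cDC1 against cDC2. With the block and mcDC replicate 3 left out, they were 19 and 31 for mcDC against cDC1 and cDC1 against cDC2. Leaving out a library gave 4 to 17, 1 to 11 and 12 to 24. Over all genes the lowest counts came without cDC1 replicate 2, cDC2 replicate 2 and cDC1 replicate 2, and the highest without mcDC replicate 3, mcDC replicate 1 and mcDC replicate 3. The replicate block changed no call of the 10 genes beyond those given beside them.

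With 3 libraries a subset and mcDC totals of 5.15 to 8.24 M reads, genes at a few RPKM such as Cd163 rest on 68 to 299 reads, and a difference that was not called is not shown to be absent.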
